A study of Mus musculus with 4 samples.

Results

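Corticosteroid signalling was followed through 8 genes, read by their symbols from the deposited count tables: the receptors Nr3c1 and Nr3c2, the receptor co-chaperones Fkbp4 and Fkbp5, the steroid-activating enzyme Hsd11b1, and the response genes Sgk1, Tsc22d3 and Per1. All 8 of 8 were found among 24100 genes. RNA bound to EGFP-tagged ribosomes and captured with antibodies to EGFP (immunopurified, IP; 3 libraries) was compared with an Input library (1 library) of prefrontal cortex, both from adult males of the Crh-IRES-Cre line. In this line Crh, which encodes the stress peptide corticotropin-releasing hormone (CRH), drives Cre recombinase, so Cre marks cells in which that gene is or has been active. Every animal of both groups carried this allele, no animal was treated or stressed by design, and each library was a pool of 5 males. How the tagged ribosome was delivered, and whether the pools shared animals, was not given in the sources used here. The spread behind each p-value is therefore that of these libraries alone and may be technical.

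Corticosterone, the main glucocorticoid of mice, acts through a pair of related nuclear receptors that are held by heat shock protein chaperones until hormone binds, and then move to the nucleus and bind DNA. The mineralocorticoid receptor, encoded by Nr3c2, binds the hormone more tightly than the glucocorticoid receptor, encoded by Nr3c1, so the glucocorticoid receptor is engaged mainly at the daily peak and under stress. Fkbp5 is itself induced by the receptor and its protein lowers hormone binding, which makes it a feedback brake, whereas the related protein of Fkbp4 favours hormone binding and nuclear transport. In the prefrontal cortex this system is known as a target of the stress axis that hypothalamic CRH drives.

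The glucocorticoid receptor binds an inverted repeat, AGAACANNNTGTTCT, whose arms are each met by a single receptor of a dimer. RefSeq promoter windows in GRCm38.p6, running from 250 bases before to 50 bases after an annotated transcript start, matched 7 of the 8 genes, all but Nr3c1, with 15 windows in all. Both strands were searched for this full element, for its single arm AGAACA, for the E-box CACGTG bound by the clock activators CLOCK and BMAL1, and for GAANNTTC, a pair of the units that heat shock factors bind. The full element was found in 3 of 32851 windows (0.00913%), and 1 of these belonged to Sgk1, 189 bases before the start of 1 of its 6 windows. The other 2 windows belonged to Acnat2 and to the gene model Gm35041, neither of which was tested here. A single arm was in 4 of the 15 windows (18.97% of all windows), an E-box in 3 (7.15%) and a heat shock pair in 4 (7.86%). The full element of Sgk1 contains a pair of arms and also overlaps a match to the heat shock pair. Shown are the stretch of Sgk1 that holds the full element (chr10:21993651-21993765, plus strand), that of Tsc22d3 with a single arm (chrX:140600652-140600757, minus strand), that of Per1 with an E-box (chr11:69098733-69098838, plus strand) and that of Fkbp4 with a heat shock pair (chr6:128438750-128438857, minus strand). They were picked because such letters belong to elements that the receptor, the clock activators and heat shock factors are known to bind. Capitals mark the match.
Sgk1: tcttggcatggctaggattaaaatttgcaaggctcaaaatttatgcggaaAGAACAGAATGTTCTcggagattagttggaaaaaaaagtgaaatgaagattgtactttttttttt
Tsc22d3: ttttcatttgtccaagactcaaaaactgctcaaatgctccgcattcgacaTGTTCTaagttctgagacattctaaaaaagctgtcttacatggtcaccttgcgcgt
Per1: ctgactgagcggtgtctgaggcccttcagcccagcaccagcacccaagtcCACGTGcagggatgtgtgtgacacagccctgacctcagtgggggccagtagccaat
Fkbp4: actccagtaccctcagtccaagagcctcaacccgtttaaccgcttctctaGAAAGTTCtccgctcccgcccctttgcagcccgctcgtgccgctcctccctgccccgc
A match describes letters only and does not show that a factor was bound.

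**Figure D1:**
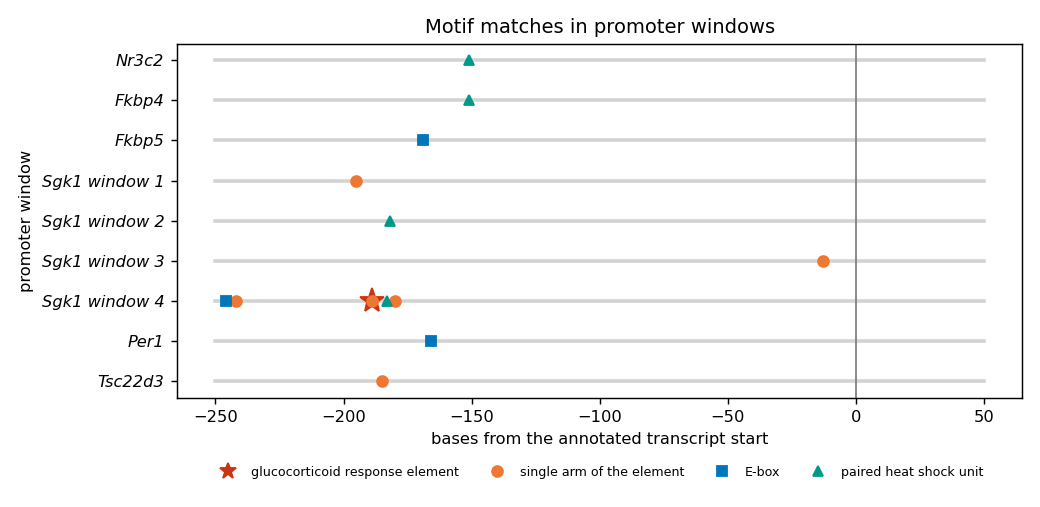
Matches to the 4 motifs in the promoter windows of the 8 genes that held any, by distance in bases from the annotated transcript start (vertical line). The star, in the lowest of the Sgk1 windows, is the full glucocorticoid response element 189 bases before the start; windows without a match are not drawn.

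Total counts were 10031072 to 23548375 in the IP libraries and 14474529 in the Input. Levels are library-scaled counts (CPM), with TMM factors applied to the library totals. Crh was at 174 to 501 CPM in the IP libraries, against 1.32 CPM in the Input. Of 5 markers of GABAergic neurons 4 were called higher in IP, and the summed level of the 5 was 4445 to 7104 CPM in IP, against 440 CPM in the Input. Crh, which drives Cre, was 1 of these 4 and is in the sum, so its call is not independent of how cells were marked. Another of the 5 held 2252 to 3801 CPM of the sum in IP, against 33.8 CPM in the Input. The summed level of 7 astrocyte markers was 262 to 376 CPM in IP and 550 CPM in the Input, that of 7 oligodendrocyte markers 318 to 499 and 687 CPM, and that of 7 microglial markers 21.3 to 36.2 and 76.6 CPM. Below the Input in all 3 IP libraries were 7 astrocyte, 4 oligodendrocyte and 6 microglial markers. Of the oligodendrocyte list, Mag lay above it in all 3 (8.80, 12.7 and 10.3 CPM, against 5.28 CPM), and Mbp and Mobp had IP libraries on both sides. Opalin of the oligodendrocyte list and Tmem119, C1qa and Aif1 of the microglial list had 0 counts in at least 1 IP library. The 7 endothelial markers summed to 126, 459 and 215 CPM in IP 1, 2 and 3, against 33.4 CPM in the Input, and all 7 lay above the Input in every IP library. The 5 excitatory markers, of which 1 was called lower, summed to 3118 to 6034 CPM in IP and 4631 CPM in the Input. In RNA from whole tissue or from pooled cells, fewer cells of a type and less RNA per cell cannot be told apart.

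None of the 8 genes differed between IP and Input past an adjusted p of 0.05 (edgeR's quasi-likelihood test with Benjamini-Hochberg adjustment over 14636 genes, adjusted p = 0.9999 for each). Over all genes tested 67 were called (0.458%), 60 higher (0.41%) and 7 lower (0.0478%) in IP, so that 0 of 8 lies near this background. The split was 50 higher to 15 lower with library totals alone, 51 to 15 with upper-quartile factors and 37 to 14 with limma-voom. At an unadjusted p under 0.05 the count was 0 of 8 by edgeR, by DESeq2 and by limma-voom (4.43% of all genes by edgeR, 3.2% higher and 1.23% lower in IP). The 3 genes Nr3c2, Fkbp4 and Sgk1 lay above the Input in all 3 IP libraries (19.7% of all genes did), Nr3c1 lay below it in all 3 (24.1%), and the other 4 had IP libraries on both sides (56.2%). The median log2 fold of the 8 was 0.56, against 0.083 over all genes tested. All 8 were tested, so none was lost to the low-count filter.

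**Figure D2:**
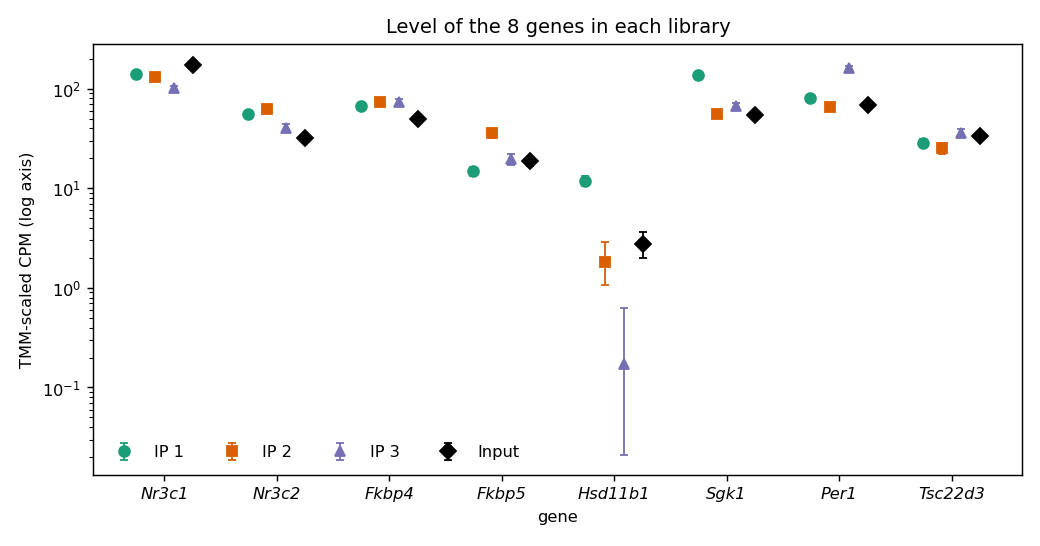
TMM-scaled CPM (log axis) of the 8 genes in IP 1, 2 and 3 and in the Input, each point 1 library of 5 males, with bars for the 95% Poisson interval of its count. Nr3c1 lies lower in all 3 IP libraries than in the Input, Nr3c2 and Fkbp4 lie higher, and Hsd11b1 spreads from 11.9 CPM in IP 1 to 0.172 CPM in IP 3.

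Nr3c1, the glucocorticoid receptor (Entrez 14815, chromosome 18, 39410545 to 39519421 in GRCm38, protein coding), was at 141, 130 and 101 CPM in IP 1, 2 and 3, against 173 CPM in the Input. All 3 IP libraries lay below the Input, at 0.815, 0.753 and 0.584 of its level. IP averaged 124 ± 20.7 CPM (SD, n = 3). The log2 fold was -0.48 ± 0.47 (SE) with a 95% interval of -1.47 to 0.51, which includes 0. Nr3c2, the mineralocorticoid receptor (Entrez 110784, chromosome 8, 76899442 to 77245012), was at 56.1, 62.3 and 40.5 CPM in the IP libraries, against 32.1 CPM in the Input. Its IP libraries all lay above the Input, at 1.75, 1.94 and 1.26 times its level. Its log2 fold was 0.72 ± 0.75 (SE), with a 95% interval of -0.85 to 2.29. With library totals alone both genes kept the same side of the Input in all 3 IP libraries, and the ratio for Nr3c2 in IP 3 was then 1.05.

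The receptors were next set against each other within each library, a measure that does not depend on how libraries are scaled. Of the reads of both receptor genes, Nr3c2 took 28.5%, 32.4% and 28.6% in IP 1, 2 and 3 (exact 95% intervals 27.1 to 29.8%, 30.2 to 34.6% and 26.5 to 30.9%), against 15.6% in the Input (14.4 to 16.9%). The 3 IP libraries did not overlap the Input within counting error. The intervals of IP 1 and IP 2 did not overlap each other either, though these shares lay nearer to each other than to that of the Input. How often other pairs of genes show this was not computed, and all libraries differed from each other beyond counting error. The log2 ratio of Nr3c2 over Nr3c1 averaged -1.24 ± 0.15 in IP (SD, n = 3) and was -2.43 in the Input, a difference of 1.19, or 2.29-fold, with single IP libraries at 2.14 to 2.58 times the Input. An exact permutation test over the libraries, two-sided, gave p = 0.25, which is the smallest p that 3 libraries against 1 allow. The difference was 1.11 to 1.24 when any 1 IP library was left out. Per kilobase of exon, Nr3c2 reads stood at 0.472, 0.568 and 0.476 of those of Nr3c1 in the IP libraries and at 0.220 in the Input, so that the glucocorticoid receptor was the more abundant of the pair in every library.

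**Figure D3:**
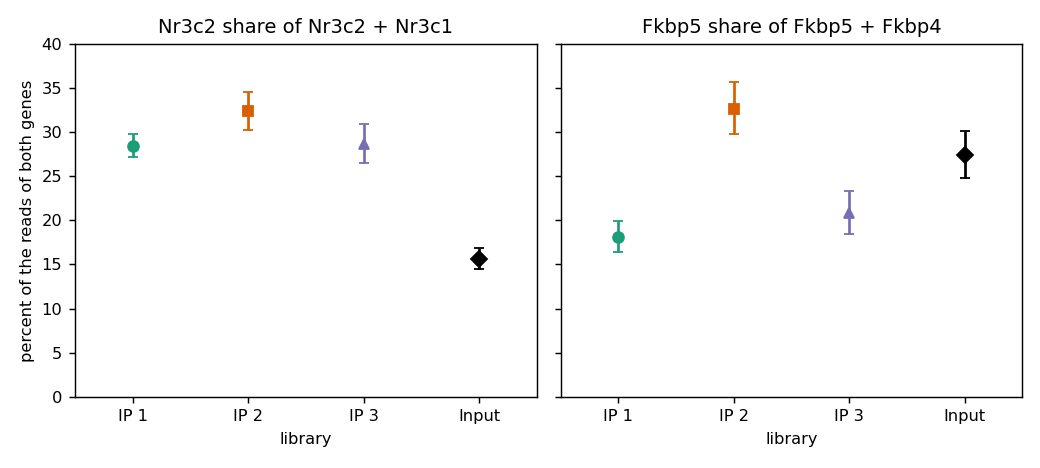
Share of Nr3c2 in the reads of Nr3c2 and Nr3c1 (left) and of Fkbp5 in the reads of Fkbp5 and Fkbp4 (right), in percent, in each IP library and in the Input; bars are exact 95% binomial intervals and cover counting error only. The Nr3c2 share is 28.5 to 32.4% in IP and 15.6% in the Input, while the Fkbp5 share of the Input lies inside the range of the IP libraries.

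Pgr, the progesterone receptor and a relative of both genes, averaged 37.2 ± 18.1 CPM in IP (SD, n = 3) and 88.8 CPM in the Input. Each of the 3 IP libraries was under the Input, and edgeR did not call the gene (log2 fold -1.26 ± 0.70, adjusted p = 0.9999). By the distance between the 3 IP-minus-Input differences of log2(CPM + 0.5), over 4 libraries and 10552 other genes of at least 5 CPM, the genes nearest to Nr3c1 were Strap, Palm2 and Tgfbrap1 (distances 0.0700, 0.0934 and 0.119), and those nearest to Nr3c2 were Stox2, Rbbp4 and Usp34 (0.0389, 0.0628 and 0.108).

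Fkbp4, which encodes the co-chaperone FKBP52 (Entrez 14228, chromosome 6, 128429735 to 128438677), was the most even of the 8 genes. It was at 67.5, 73.8 and 74.4 CPM in IP 1, 2 and 3, against 49.3 CPM in the Input, with all IP libraries above the Input and within 1.10-fold of each other. Its coefficient of variation over the IP libraries was 5.26%, against a median of 39.97% over 10553 genes of at least 5 CPM, of which 1.49% were more even. The log2 fold was 0.54 ± 0.64 (SE; 95% interval -0.80 to 1.89), and 0.27 with library totals alone, where the 3 IP libraries stayed above the Input.

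Fkbp5, the gene of FKBP51 (Entrez 14229, chromosome 17, 28399094 to 28517527), was at 14.9, 35.8 and 19.6 CPM in the IP libraries and 18.6 CPM in the Input. IP 2 stood above the rest, and the Input lay inside the range of the IP libraries. The log2 fold of 0.33 ± 0.98 (SE) turned to -0.12 without IP 2. All 5 excitatory markers were highest in IP 2 as well, and all 5 GABAergic markers were lowest there. Highest in IP 2 were also 4 of 7 astrocyte, 3 of 7 oligodendrocyte and 2 of 7 microglial markers. The summed level of the 7 endothelial markers was highest in IP 2 too. Slc2a1, the glucose transporter of the blood-brain barrier, was the most abundant of these 7 there (49.9, 307 and 103 CPM in IP 1, 2 and 3, against 22.8 CPM in the Input). Singly, 4 of the 7 were highest in IP 2 and the other 3, Cldn5, Pecam1 and Cdh5, were lowest there. The part of other cell types in the level of Fkbp5 was not tested. Of the reads of Fkbp5 and Fkbp4 together, Fkbp5 took 18.1%, 32.7% and 20.8% in IP 1, 2 and 3, against 27.4% in the Input. The mean log2 ratio of Fkbp5 over Fkbp4 was -1.72 ± 0.60 in IP (SD, n = 3) and -1.40 in the Input, a difference of -0.31 that lay within the spread of the IP libraries (exact permutation p = 1, two-sided), at -0.65 to -0.081 with 1 IP library left out.

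Of 18 chaperones and co-chaperones of the receptors, a list that includes Fkbp4 and Fkbp5, 0 passed in edgeR, DESeq2 or limma-voom, with 2 higher at an unadjusted p under 0.05 by edgeR (3.2% of all genes tested were). In all 3 IP libraries 11 of them lay above the Input (19.7% of all genes tested) and 2 below (24.1%), and the median log2 fold was 0.39, against 0.083 over all genes tested. Hsp90ab1, the constitutive HSP90 that holds the receptors ready for hormone, was at 1400, 1413 and 1984 CPM in the IP libraries and 847 CPM in the Input (log2 fold 0.92 ± 0.35, adjusted p = 0.778 by edgeR). Without IP 1 it passed, at a log2 fold of 0.98 and an adjusted p of 0.0227. Hspa8, the constitutive HSP70 of the same cycle, was at 786, 1069 and 1225 CPM in IP and 611 CPM in the Input (0.75 ± 0.37).

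Hsd11b1, the gene of 11-beta-hydroxysteroid dehydrogenase type 1, which turns the inert 11-keto steroid back into active corticosterone (Entrez 15483, chromosome 1, 193221634 to 193264075), was the most uneven of the 8 genes. It had 273, 17 and 2 counts in IP 1, 2 and 3, or 11.9, 1.82 and 0.172 CPM, against 46 counts or 2.76 CPM in the Input. IP 1 stood at 4.31 times the Input (95% counting interval 3.15 to 6.03) and IP 3 at 0.0625 of it (0.00735 to 0.239), so single IP libraries lay on opposite sides of the Input. IP 1 and IP 3 differed 69.0-fold (18.9 to 573), and the coefficient of variation over the IP libraries was 137%. The log2 fold of 0.75 ± 2.11 (SE) turned to -1.49 without IP 1 and to -0.32 with limma-voom. IP 1 was also the library with the highest Crh, at 501 CPM against 174 and 193 CPM in IP 2 and 3, and whether Hsd11b1 and Crh go together was not tested.

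Other genes of corticosteroid metabolism and transport were scarce. Of 9 listed, 5 were tested and 0 passed in edgeR, DESeq2 or limma-voom, with 0 at an unadjusted p under 0.05 by edgeR and limma-voom and 1 by DESeq2. Hsd11b2, whose enzyme inactivates corticosterone and so shields the mineralocorticoid receptor in kidney, had 0 counts in all 3 IP libraries and 1 count in the Input. Abcb1a, an efflux pump of the blood-brain barrier that carries steroids, was at 22.0, 11.97 and 7.93 CPM in the IP libraries and 2.04 CPM in the Input (log2 fold 2.77 ± 1.52, adjusted p = 0.9999 by edgeR). All its IP libraries lay above the Input, as did those of all 7 endothelial markers. Abcb1a was highest in IP 1, where the endothelial sum was lowest (126, 459 and 215 CPM in IP 1, 2 and 3). The part of endothelial cells in its level was not tested. Of the 5 genes tested, 1 lay above the Input in all 3 IP libraries and 1 below. Srd5a1, a steroid 5-alpha-reductase, averaged 11.1 ± 6.23 CPM in IP and 11.9 CPM in the Input.

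Sgk1, the serum- and glucocorticoid-regulated kinase, which controls ion channels and transporters (Entrez 20393, chromosome 10, 21882184 to 21999903), was at 137, 55.5 and 66.5 CPM in IP 1, 2 and 3, against 55.0 CPM in the Input. IP 1 alone stood apart, at 2.49 times the Input, while IP 2 and IP 3 were at 1.01 and 1.21 times. The log2 fold was 0.65 ± 0.67 (SE; 95% interval -0.75 to 2.05) and 0.13 without IP 1, and with library totals or upper-quartile factors IP 2 lay below the Input. The oligodendrocyte markers had their lowest sum in IP 1 (318 CPM, against 499 and 449 CPM in IP 2 and 3), where Sgk1 was highest, but singly 3 of the 7 were lowest in IP 1, and their part in the level of Sgk1 was not tested. Its paralog Sgk3, a kinase of endosomes, averaged 6.65 ± 2.77 CPM in IP and 17.4 CPM in the Input, below it in all 3 IP libraries (log2 fold -1.38 ± 1.25).

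Per1, a repressor of the circadian clock that glucocorticoids also induce (Entrez 18626, chromosome 11, 69095217 to 69109960), was at 80.8, 66.2 and 164 CPM in the IP libraries, against 69.5 CPM in the Input. IP 3 alone stood apart, at 2.36 times the Input, and the other IP libraries lay on both sides of it. The log2 fold of 0.58 ± 0.63 (SE; 95% interval -0.74 to 1.89) was 0.081 without IP 3. Tsc22d3, the gene of the glucocorticoid-induced leucine zipper protein GILZ (Entrez 14605, chromosome X, 140539528 to 140600659), was at 28.8, 25.4 and 36.0 CPM in the IP libraries, against 33.5 CPM in the Input. Its IP libraries lay close to the Input on either side, with a log2 fold of -0.16 ± 0.82 (SE; 95% interval -1.88 to 1.57), and all 3 lay below it with library totals or upper-quartile factors. Sgk1 and Per1 were thus each high in a single but different IP library, and neither of these was IP 2, where Fkbp5 was highest.

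**Figure D4:**
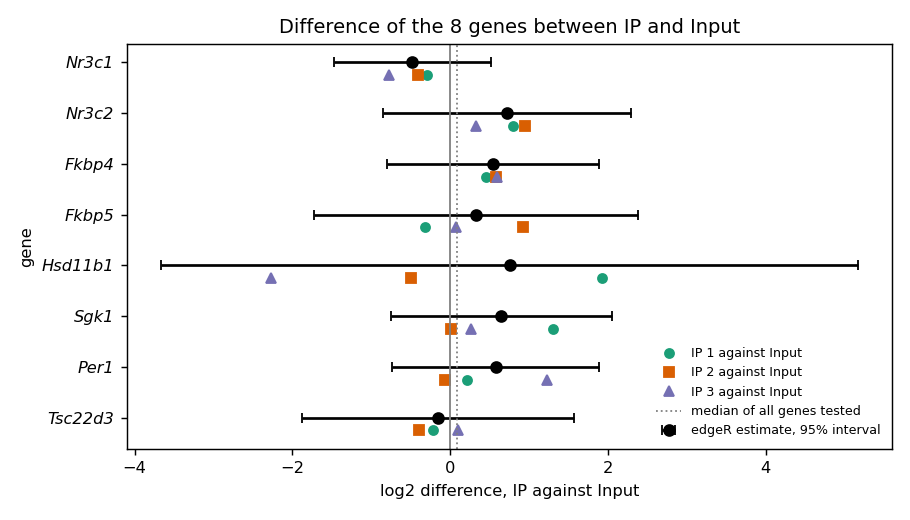
Log2 difference of each gene between IP and Input: black points and bars are the edgeR estimate with its 95% interval, coloured symbols are single IP libraries as log2((CPM + 0.5)/(Input CPM + 0.5)), and the dotted line is the median of all genes tested (0.083). All 8 intervals include 0, and the single libraries of Hsd11b1 lie on both sides of it.

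Of 28 genes known to be induced by glucocorticoids, among them Fkbp5, Sgk1, Tsc22d3 and Per1, 27 were tested and 0 were called by edgeR or limma-voom, with 2 higher and 1 lower at an unadjusted p under 0.05 by edgeR (3.2% and 1.23% of all genes tested). The median log2 fold was -0.13, against 0.083 over all genes tested, with 4 members above the Input in all 3 IP libraries and 6 below (19.7% and 24.1% of all genes tested). Gpd1, the glycerol-3-phosphate dehydrogenase of the cytosol, was at 256, 238 and 461 CPM in IP 1, 2 and 3, against 87.6 CPM in the Input. Its IP libraries all lay above the Input, with a log2 fold of 1.86 ± 0.51 (SE) and an adjusted p of 0.216 by edgeR. It was the single member called by DESeq2 (adjusted p = 0.0226), and it was also called by edgeR without IP 1 (0.00108) and without IP 2 (0.0367). Klf9, a zinc finger factor, averaged 263 ± 86.5 CPM in IP and 256 CPM in the Input (log2 fold 0.040 ± 0.44).

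Of 18 circadian clock genes, including Per1, 0 passed in edgeR, DESeq2 or limma-voom, with 2 at an unadjusted p under 0.05 by each of these tools, both lower in IP by edgeR (1.23% of all genes tested were). The median log2 fold was 0.043, against 0.083 over all genes tested, and -0.23 against -0.19 with library totals alone. Hlf, an output factor of the clock, was at 323, 224 and 215 CPM in the IP libraries and 615 CPM in the Input (log2 fold -1.28 ± 0.38, adjusted p = 0.313 by edgeR), and passed without IP 1 (-1.51, adjusted p = 0.00300). Clock, which encodes an activator of the loop that Per1 closes, averaged 295 ± 89.1 CPM in IP and 257 CPM in the Input. Per2, the closest relative of Per1 and chosen after its values were seen, was at 31.9, 30.3 and 33.9 CPM in the IP libraries and 52.9 CPM in the Input, and so had no high value in IP 3.

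Of 16 coregulators that nuclear receptors recruit, 0 passed in edgeR, DESeq2 or limma-voom, with 3 higher at an unadjusted p under 0.05 by edgeR (3.2% of all genes tested were). Their median log2 fold was 0.18, against 0.083 over all genes tested, and -0.10 with library totals alone, where that of all genes tested was -0.19. Ncor1, a corepressor, averaged 928 ± 266 CPM in IP and 507 CPM in the Input (log2 fold 0.87 ± 0.39), and Ncoa1, a coactivator of steroid receptors, averaged 568 ± 116 CPM in IP and 361 CPM in the Input (0.66 ± 0.39). Of 14 paralogs of the 8 genes, which include Pgr and Sgk3, 0 passed in edgeR, DESeq2 or limma-voom, with 0 at an unadjusted p under 0.05 by edgeR and DESeq2 and 1 by limma-voom. Their median log2 fold was -0.47, against 0.083 over all genes tested. In all 3 IP libraries 8 lay below the Input (24.1% of all genes tested did) and 2 above (19.7%). Fkbp1a, the small immunophilin FKBP12, averaged 390 ± 29.8 CPM in IP and 613 CPM in the Input (log2 fold -0.65 ± 0.36). Tsc22d1, a relative of Tsc22d3, averaged 283 ± 94.6 CPM in IP and 395 CPM in the Input (-0.48 ± 0.42).

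**Figure D5:**
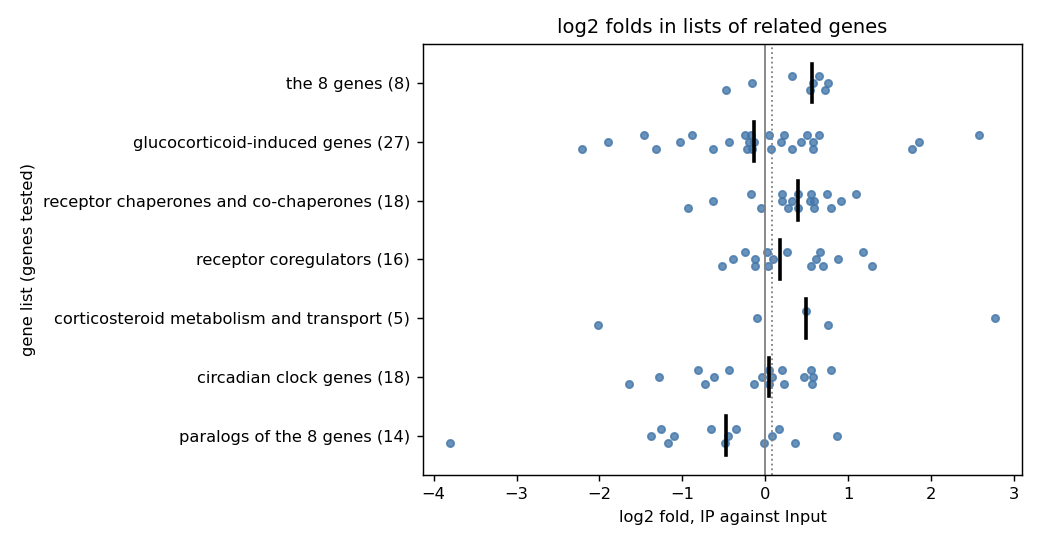
Log2 fold between IP and Input of every tested gene of the 8 and of 6 lists of related genes (points, spread vertically for legibility), with the median of each list as a black bar and that of all genes tested as a dotted line. The bars run from -0.47 for the paralogs to 0.56 for the 8 genes, and points of each list lie on both sides of 0.

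Levels of the 8 genes were compared with each other only per kilobase of exon (CPM per kb, over all annotated exons of a gene). By the mean of the IP libraries Fkbp4 stood first at 25.7 ± 1.35 CPM per kb (SD, n = 3), followed by Per1 at 18.4 ± 9.34, Sgk1 at 17.6 ± 9.00 and Nr3c1 at 16.1 ± 2.70 CPM per kb. Singly, Fkbp4 ranked 2, 1 and 2 in IP 1, 2 and 3, with Sgk1 first in IP 1 (27.9 CPM per kb) and Per1 first in IP 3 (29.1). Then came Nr3c2 at 8.18 ± 1.73, Tsc22d3 at 6.93 ± 1.25, Fkbp5 at 2.47 ± 1.16 and Hsd11b1 at 1.09 ± 1.49 CPM per kb. The ranges of the first 4 overlapped over the IP libraries, except that Nr3c1 lay below Fkbp4 in all 3. Those of Nr3c2 and Tsc22d3 overlapped too, as did those of Fkbp5 and Hsd11b1. In the Input the order was Nr3c1 (22.5 CPM per kb), Fkbp4 (17.7), Per1 (12.3), Sgk1 (11.2), Tsc22d3 (7.72), Nr3c2 (4.95), Fkbp5 (1.97) and Hsd11b1 (0.649). The glucocorticoid receptor, first in the Input, ranked 3, 2 and 4 in IP 1, 2 and 3.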

How the data were processed

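The tables the authors deposited hold raw, unnormalized read counts, 1 library per file, with Entrez identifiers and symbols per the file headers. STAR 2.0.0e, HTSeq and mm10 are named in the submitters' processing notes, while the deposited table names hold the word subread, so the counter was not settled. The sources used here do not give the annotation, the strand or the treatment of multiply mapped reads. Of the exon bases of Nr3c2 3.82% overlap an antisense gene (GENCODE M21), and those of the other 7 genes overlap none.

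Genes without a symbol (9 genes) took at most 0.0221% of counts. No pair of libraries agreed within sampling noise (chi-square per degree of freedom at least 84.7). The fit was run in R 4.3.3 with edgeR 4.0.16. Genes passing filterByExpr (minimum count 10) were scaled by TMM and tested by the two-sided quasi-likelihood F test, with a threshold of 0.05 after Benjamini-Hochberg adjustment. Residual degrees of freedom numbered 2, all from the IP libraries, and the single Input was taken to have the same spread. To these the fit added 16.96 prior degrees of freedom, drawn from the spread over all genes tested. Each SE, interval and p-value of a log2 fold by edgeR thus rests mostly on that pooled spread, not on the gene's own IP libraries. The SE of a log2 fold is that fold over the square root of its F value. The test was also run on simulated counts, and that run is not used as support for any result here. Intervals on counts (95%, Poisson or Clopper-Pearson) cover counting error only. DESeq2 1.42.0, limma-voom (limma 3.58.1), other scalings and filters, a robust prior, a stricter threshold and leaving out each IP library were the alternatives. Named by rule beside the 8 genes were called members of a list (up to 4) and its 2 most abundant others. Pgr, Sgk3, Hsd11b2 and Per2 were named outside this rule, as were the genes of the last section and single cell type markers. The 8 genes and the lists were chosen with earlier results of these data known. A few listed genes are not reported here by name.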

Additional observations from a re-analysis of the deposited data

How the results depend on the processing

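None of the 8 genes was called under any of 12 alternatives (lowest adjusted p 0.9989, with DESeq2). For Hsd11b1 10 alternatives gave an adjusted p, since a mean of at least 5 CPM removed the gene and DESeq2 gave it none. The direction turned for Hsd11b1 with limma-voom (log2 fold -0.32) and without IP 1 (-1.49), and for Fkbp5 without IP 2 (-0.12), and the other 6 genes kept theirs. Leaving out 1 IP library gave log2 folds of -1.49 to 1.32 for Hsd11b1 and -0.12 to 0.55 for Fkbp5. The cause was not tested. Library totals alone moved the median of all genes tested from 0.083 to -0.19 and upper-quartile factors to -0.13. The count of genes called was 67, and 181 with DESeq2 (167 higher, 14 lower), 108 without a low-count filter (94 higher, 14 lower), 39 at an adjusted p under 0.01 (35 higher, 4 lower) and 90 to 210 with 1 IP library left out (82 to 185 higher, 8 to 25 lower). It was 37 higher and 14 lower with limma-voom, and 15 were lower with upper-quartile factors and likewise with library totals. In the list of induced genes 1 was called by DESeq2. With 1 IP library left out, 0 to 1 were called among the induced genes, the chaperones, the coregulators and the clock genes (Gpd1, Hsp90ab1 and Hlf in the lists of induced genes, chaperones and clock genes). No paired analysis was possible because the Input is a single library. The 95% intervals of the log2 folds were ± 0.99 (Nr3c1) to ± 2.05 (Fkbp5) for 7 of the 8 genes and ± 4.41 for Hsd11b1, and each included 0, so differences of the size seen were not detectable with these libraries.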

Other observations

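The following genes induced by glucocorticoids were chosen after their values were seen, and they differed in which IP libraries lay above the Input. Zbtb16, a transcriptional repressor known as PLZF, was at 204, 233 and 118 CPM in IP 1, 2 and 3, against 54.2 CPM in the Input, with all IP libraries above the Input (log2 fold 1.77 ± 0.56, adjusted p = 0.420 by edgeR). Nfkbia, the inhibitor of NF-kappaB, was at 5.93, 85.7 and 2.07 CPM in the IP libraries and 5.22 CPM in the Input, and so was high in IP 2 alone, the library in which Fkbp5 was highest too. Mt2, a metallothionein, was at 16.04, 12.6 and 23.3 CPM in the IP libraries and 64.4 CPM in the Input, below it in all 3 (log2 fold -1.89 ± 0.79, adjusted p = 0.914). Hif3a, which encodes a hypoxia-inducible factor subunit, was at 3.18, 5.34 and 23.1 CPM in the IP libraries and 19.5 CPM in the Input. Errfi1, a feedback inhibitor of the EGF receptor, had the same order over the IP libraries as Per1, at 84.2, 48.1 and 122 CPM, against 59.6 CPM in the Input. The part of other cell types in these values was not tested.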
